A study of Drosophila melanogaster with 3 samples.

Results

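Aminoacyl-tRNA synthetases are the enzymes that attach each amino acid to its transfer RNA, and they are needed in every growing cell. Most amino acids are served by separate nuclear genes for the cytoplasm and for the mitochondrion, and in flies the suffix -m marks the mitochondrial enzyme. The enzymes fall into class I and class II by the fold of their catalytic domain, and several cytoplasmic ones are known to assemble into a multi-synthetase complex in animals. The members were all protein-coding genes whose symbol is an amino acid name, or a pair of them, followed by RS, with or without -m. This rule uses no measured value, and it found 33 of 13945 protein-coding genes, 18 without the suffix and 15 with it. Genes without the suffix are not taken as cytoplasmic only, since the rule found no gene with -m for glycine, histidine, lysine or threonine. It found none for glutamine either, but an amidotransferase makes glutaminyl-tRNA in mitochondria. The subunit genes alpha-PheRS and beta-PheRS carry a prefix and are given with the partner genes.

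Binding of Sp1, a member of the Sp/KLF family of zinc finger proteins, was mapped by ChIP-seq with an anti-GFP antibody in whole Drosophila melanogaster. The animals were larvae in the wandering phase of the third instar, males and females together, of 1 transgenic line in which Sp1 is fused to GFP at its C terminus. The 3 biological replicates are separate biosamples of this line, with no other genotype, stage or treatment, so there is no contrast between conditions. Each replicate was deposited as a list of 30000 peaks, as was the pool of all 3, and the authors' optimal set by irreproducible discovery rate holds 8001 peaks, which are the 8001 strongest of the pooled list. The lists hold no reads, so depth is unknown. All signals below are the authors' peak signal values, whose scaling between lists is not stated, so the SD over replicates includes any difference in scale. In whole animals, binding in few cells and weak binding in many cells cannot be told apart.

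A peak counted for a gene when its summit lay within 500 bp of any of the gene's transcription start sites (TSSs). Sp1-GFP was found at this distance from 15 of the 33 synthetase genes (45.5%) in the optimal set, against 27.8% of all protein-coding genes. Of the genes without -m, 12 of 18 had such a peak (66.7%), and of the genes with -m, 3 of 15 (20%). In the pooled list, 20 of the 33 had a promoter peak, against 42.6% of all genes. The genes without -m that had an optimal peak were AlaRS, AsnRS, AspRS, GlnRS, GluProRS, GlyRS, IleRS, LysRS, MetRS, SerRS, ThrRS and ValRS. Those with -m were ArgRS-m, CysRS-m and LeuRS-m.

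**Figure D1:**
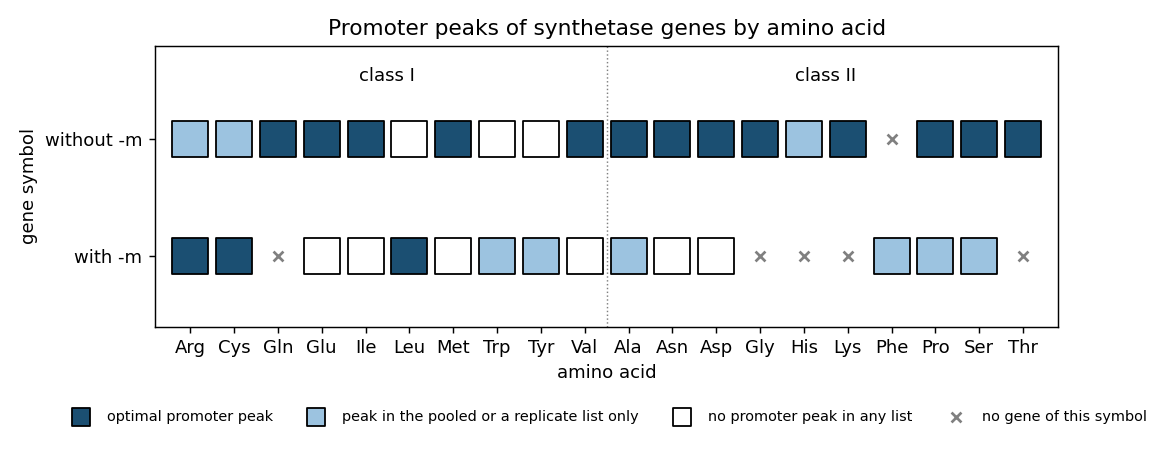
The 33 synthetase genes by amino acid (x axis) and symbol (y axis), with dark squares for an optimal promoter peak, light squares for a peak only in the pooled or a replicate list, white squares for none and crosses where no gene has the symbol. GluProRS, which charges glutamate and proline, is drawn under both, and 12 genes without -m and 3 with -m are dark.

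The share of genes without -m was above that of genes with -m in each replicate. To compare lists of equal size, each replicate was cut to its 8001 strongest peaks. In replicate 1 these marked 12 of 18 genes without -m and 5 of 15 with it, against 30.2% of all genes. In replicate 2 they marked 13 and 5, against 29.4% of all genes, and in replicate 3 they marked 10 and 3, against 23.7%. As shares, the genes without -m stood at 64.8% ± 8.49 (SD, n = 3) and those with -m at 28.9% ± 7.70 (SD, n = 3). The lowest replicate value of the first group, 55.6%, lay above the highest of the second, 33.3%. The strongest peaks of all 3 replicates marked 12 of the 33 genes, against 18.1% of all genes.

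For 12 amino acids the rule found a gene of each kind. The gene without -m alone had a peak for 7 of them, namely alanine, asparagine, aspartate, isoleucine, methionine, serine and valine. The gene with -m alone had one for arginine, cysteine and leucine. For tryptophan and tyrosine neither had one, and no pair was marked whole. With 7 and 3 genes called among 12, few shared pairs could arise, and the lack of them was not tested. Other lists did mark pairs: the pooled list marked SerRS with SerRS-m and CysRS with CysRS-m, and the strongest peaks of replicates 1 and 2 each marked AlaRS with AlaRS-m and ArgRS with ArgRS-m.

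Promoter sequences of 7 members are shown to set strong, weak and absent peaks beside their letters. Each run ends at the base before the most upstream TSS on the gene's own strand and is cut at 200 bases or at the nearest exon of any protein-coding gene. Capitals mark words that were searched on both strands. The GC box was searched as GGGCGG and the CACCC box by its own letters. The DRE, known as the binding element of the factor DREF, was searched as TATCGATA, and the E-box as CACGTG. The 7 runs include all 4 of the 33 genes with a DRE upstream, so they do not show how often it occurs. The ATF4 element was searched as TTGCATCA, the core of motif 1 as GGTCACAC and the GAGA element as GAGAG. No word contains another. The GC and CACCC boxes are known as sites of Sp and KLF zinc fingers. The sequences are from the RefSeq Release 6 genome. IleRS lies at chr3L:22288465-22288664 on the plus strand, with the optimal summit at base 45 of the run. AlaRS lies at chr2L:8381765-8381820 on the minus strand, with the summit at base 27. ArgRS lies at chrX:15844146-15844345 and TrpRS at chr3R:9266905-9267018, both on the minus strand and without an optimal summit. GluProRS lies at chr3R:23958392-23958591 on the minus strand, with the summit at base 56. ThrRS lies at chr2L:12103551-12103750 on the plus strand, with the summit at base 29. LeuRS-m lies at chr3L:4825688-4825852 on the plus strand, with the summit at base 98.
IleRS: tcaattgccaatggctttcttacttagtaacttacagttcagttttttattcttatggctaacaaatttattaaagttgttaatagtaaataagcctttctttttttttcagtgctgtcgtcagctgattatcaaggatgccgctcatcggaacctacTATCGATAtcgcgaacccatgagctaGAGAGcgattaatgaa
AlaRS: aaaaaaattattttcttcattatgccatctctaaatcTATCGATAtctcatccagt
ArgRS: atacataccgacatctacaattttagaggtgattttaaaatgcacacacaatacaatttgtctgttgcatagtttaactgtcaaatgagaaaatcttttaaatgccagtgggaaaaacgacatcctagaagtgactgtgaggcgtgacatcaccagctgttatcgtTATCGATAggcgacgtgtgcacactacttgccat
TrpRS: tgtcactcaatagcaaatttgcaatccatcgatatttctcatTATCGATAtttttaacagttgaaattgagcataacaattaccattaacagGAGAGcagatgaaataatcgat
GluProRS: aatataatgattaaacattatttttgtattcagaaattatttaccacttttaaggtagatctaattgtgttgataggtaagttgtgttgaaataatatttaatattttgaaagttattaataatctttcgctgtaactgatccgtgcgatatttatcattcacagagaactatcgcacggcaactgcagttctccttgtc
ThrRS: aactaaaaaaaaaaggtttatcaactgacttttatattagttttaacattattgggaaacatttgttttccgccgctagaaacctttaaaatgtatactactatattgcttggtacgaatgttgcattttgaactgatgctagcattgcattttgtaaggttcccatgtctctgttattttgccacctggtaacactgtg
LeuRS-m: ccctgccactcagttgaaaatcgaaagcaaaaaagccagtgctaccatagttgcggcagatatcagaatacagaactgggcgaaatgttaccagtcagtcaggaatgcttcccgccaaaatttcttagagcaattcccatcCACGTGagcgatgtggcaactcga

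The words were found at 0 to 2 of the 15 synthetase summits within 100 bp and at 1 to 6 within 250 bp. Within 100 bp of the 15 optimal summits, no GC box was found, against 4.52% of the 2873 summits that are the highest at some protein-coding gene. A CACCC box was found at 1 of 15, against 17.1%. The DRE was found at 1 of 15, AlaRS, where it lies just downstream of the summit, against 6.72% of all such summits. An E-box was found at LeuRS-m alone, against 2.51%. The motif 1 core was found at GlnRS alone, against 5.60%, and the GAGA element at ArgRS-m and AsnRS, against 24.6%. No ATF4 element was found, against 0.348%. Within 250 bp, the CACCC box was found at 6 of 15, against 40.1% of all such summits, and the DRE at 4 of 15, against 12.6%. The GAGA element was found there at 4 of 15, against 52.9%, and the GC box at 1, against 12.8%. The low count of the CACCC box within 100 bp was thus not seen in the wider window.

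In the 250 bases before the most upstream TSS, the DRE was present at 4 of the 33 genes, against 8.0% of all protein-coding genes. They were AlaRS and IleRS, with an optimal peak, ArgRS, with a peak in 2 replicates, and TrpRS, with none in any list. The GC box was present upstream at AspRS alone, against 5.18% of genes, and the ATF4 element at none, against 0.645%. The called AspRS peak does not lie at these bases. It sits at a TSS inside the gene, at chr2R:12879740-12880405, while the gene starts at chr2R:12877004. The CACCC box was present at 4 of 33, against 20.2%, the E-box at 2, against 2.86%, the motif 1 core at 2, against 4.21%, and the GAGA element at 5, against 25.7%. The G+C content of these 250 bases had a median of 32.8% at the 15 genes with an optimal peak and 34.8% at the 18 without. Over all genes the medians were 36.4% and 37.6%.

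The tallest synthetase peaks were at SerRS, IleRS and GluProRS. SerRS, the seryl-tRNA synthetase, had a pooled signal of 1248 (rank 959 of 8001) and replicate signals of 461, 373 and 427 in replicates 1, 2 and 3, or 421 ± 44.3 (SD, n = 3). IleRS, for isoleucine, had a pooled signal of 1196 (rank 1017) and replicate signals of 353, 290.5 and 554, or 399 ± 138 (SD, n = 3). GluProRS, which joins the glutamyl and prolyl enzymes in 1 protein, had a pooled signal of 1097 (rank 1156) and replicate signals of 367, 263 and 469, or 366 ± 103 (SD, n = 3). The replicate ranges of these 3 genes overlapped, so the differences between them were within the spread between replicates. The summits lay at 25 bp from the TSS at SerRS, -156 bp at IleRS and -145 bp at GluProRS, where negative values are upstream. In dm6, the optimal peaks span chr2L:3037173-3037608 at SerRS, chr3L:22288174-22288722 at IleRS and chr3R:23958294-23958745 at GluProRS.

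ThrRS and AspRS came next. ThrRS, for threonine, had a pooled signal of 839.6 (rank 1698) and replicate signals of 261, 209 and 369. AspRS, for aspartate, had a pooled signal of 783 (rank 1863) and replicate signals of 174, 287 and 325. By signal, replicate 3 was the highest at IleRS, GluProRS, ThrRS and AspRS, while SerRS was highest in replicate 1. Ranked within each list, AspRS stood highest in replicate 2, at 1589 against 1605 in replicate 3. Their summits lay at -172 bp at ThrRS and -219 bp at AspRS, where the distance is from a TSS inside the gene.

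A middle group held AsnRS, ValRS, AlaRS and MetRS. AsnRS, for asparagine, had a pooled signal of 532 (rank 2950) and replicate signals of 138, 210.2 and 195.5. ValRS, for valine, had 513 (rank 3080) and replicate signals of 158, 160.1 and 167. The values of ValRS were the closest together of all, with a coefficient of variation of 3.01%. AlaRS, for alanine, had 471 (rank 3442) and replicate signals of 146, 208 and 123. MetRS, the methionyl enzyme that serves elongation and initiation, had 459 (rank 3552) and replicate signals of 167, 190.7 and 126.5. At AlaRS and MetRS replicate 2 was the highest and replicate 3 the lowest. The summits lay at -61 bp at AsnRS, -349 bp at ValRS, -30 bp at AlaRS and -111 bp at MetRS.

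The 3 mitochondrial genes were among the 6 lowest called members. ArgRS-m had a pooled signal of 415 (rank 4009) and replicate signals of 135, 134 and 155. CysRS-m had 352 (rank 4881) and replicate signals of 112, 121 and 143. LeuRS-m had 277 (rank 6387) and replicate signals of 114.9, 94.0 and 75.4. Their median pooled signal was 352, against 522 at the 12 called genes without -m and 484 at all 3873 called genes. None of the 3 was among the strongest 4001 optimal peaks, where 9 of the 12 lay, against 59% of all called genes. Their summits lay at -146, -103 and -68 bp.

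The weakest called genes without -m were GlyRS, GlnRS and LysRS. GlyRS, for glycine, had a pooled signal of 336.5 (rank 5167) and replicate signals of 112, 113.5 and 132. GlnRS, for glutamine, had 256.5 (rank 6947) and replicate signals of 86.9, 106.2 and 73.1. LysRS, for lysine, had 247.5 (rank 7199), with 80.0 and 136 in replicates 1 and 2 and no peak in replicate 3. The summits lay at -185 bp at GlyRS, -27 bp at GlnRS and -35 bp at LysRS. GlnRS and LysRS lay closest above the lowest signal of the optimal set, 220.4. The next member below came at HisRS, with a pooled signal of 119.7.

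**Figure D2:**
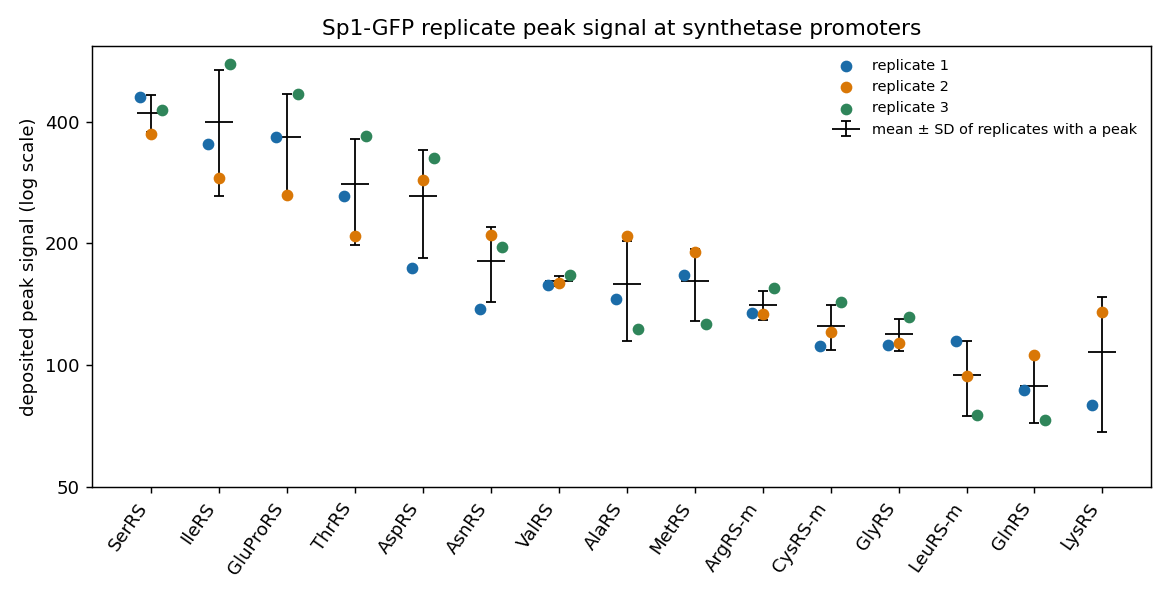
Deposited peak signal (log scale) of each replicate within 100 bp of the optimal summit at the 15 synthetase genes with an optimal promoter peak, ordered by pooled signal, with horizontal bars for the mean and error bars for the SD. SerRS, IleRS and GluProRS have the highest means (421, 399 and 366), and LysRS has no point for replicate 3.

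In all, 14 of the 15 optimal summits had a peak of every replicate within 100 bp, against 73.7% of the highest promoter summits of all genes. Their coefficients of variation ran from 3.01% to 34.5%, with a median of 20.5%, against 22.9% for all such summits. The median pooled signal of the 15 was 471, against 484 for all genes with an optimal peak, and 9 of the 15 (60%) lay among the strongest 4001 peaks of the set, against 59% of all. The synthetase median lay well inside the quartiles of all called genes, 324 and 878. Ranked within each list of 30000, the peak stood highest in replicate 3 at 7 of the 14 genes, in replicate 2 at 5 and in replicate 1 at 2. Over all such summits the shares were 34.9%, 33.2% and 31.9% in the same order.

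Of the 18 genes without an optimal peak, 5 had a weaker pooled peak. HisRS, for histidine, had replicate signals of 51.4, 82.7 and 16.6, with a pooled summit at -5 bp from a TSS that it shares with Bx on the same strand. CysRS had a pooled signal of 98.8, with 44.6 and 68.8 in replicates 1 and 2. TrpRS-m had a pooled signal of 72.4 and TyrRS-m of 71.7, and SerRS-m of 49.1. CysRS and these 3 mitochondrial genes had no promoter peak in replicate 3.

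Another 4 genes had peaks in single replicates but none in the pooled list. ArgRS had 109 and 152 in replicates 1 and 2, at ranks 5835 and 4078. PheRS-m, whose product charges phenylalanine in the mitochondrion, had 107 and 117, and AlaRS-m had 88.8 and 106.5, also in replicates 1 and 2. The 2 summits at PheRS-m lay at -133 and 35 bp, farther apart than the 100 bp allowed for a match. ProRS-m had 169 in replicate 3 alone, at rank 3593. These are among the 8001 strongest of their replicate, where 95.8% to 95.9% of peaks had a pooled summit within 500 bp. Over all protein-coding genes, 4.66% had such a peak in a replicate and none in the pooled list, and why the pooled list lacks them was not tested.

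The remaining 9 genes had no promoter peak in any of the 5 lists. They were LeuRS, TrpRS and TyrRS among the genes without -m, and AsnRS-m, AspRS-m, GluRS-m, IleRS-m, MetRS-m and ValRS-m. The nearest optimal summit to their TSSs lay 3341 bp away at AsnRS-m and 20005 bp away at LeuRS, with the other 7 between these. The lists hold only peaks above each list's lowest signal, so weaker binding at these genes was not assessed.

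The called summits sat upstream of the synthetase TSS and were mostly shared with a neighbour. Of the 15, 14 lay upstream, SerRS being the exception at 25 bp downstream, with a median offset of -111 bp, the same as the -111 bp of all genes with an optimal peak, of which 76.9% were upstream. Replicate summits lay within 96 bp of the optimal ones, where a match allowed 100 bp.

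At 14 of the 15 genes, the TSS of another protein-coding gene on the opposite strand lay within 500 bp of the same summit. Of all called genes, 51.7% shared the summit with another gene on either strand. AlaRS alone had the peak to itself. The partners were CG17260 at SerRS, with TSSs 8 bp apart, Hem, a subunit gene of the WAVE complex, at IleRS, 470 bp away, and AP-1sigma, an adaptor subunit gene, at GluProRS, 260 bp away. Others were Patsas at ThrRS, Nmda1 at AspRS, DCTN6-p27 at AsnRS, Kdm4B, a histone demethylase gene, at ValRS, and CG15084 at MetRS. GlyRS shared its peak with Plp and sstn, GlnRS with RIOK2 and LysRS with Hecw. The mitochondrial genes shared theirs with CG17816 at ArgRS-m, with O-fut1 at CysRS-m and with Dhc64C, a dynein heavy chain gene, at LeuRS-m. The synthetase TSS was the nearest to the summit at 10 of the 15 genes. At GluProRS, AspRS, CysRS-m, LysRS and ValRS the partner was nearer. Which gene a shared peak serves cannot be told from its position at any of the 14 genes. Counting each peak for its nearest gene alone kept 11 of the 15 genes, AspRS by its second summit. The share of all genes then went from 27.8% to 21.6%.

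**Figure D3:**
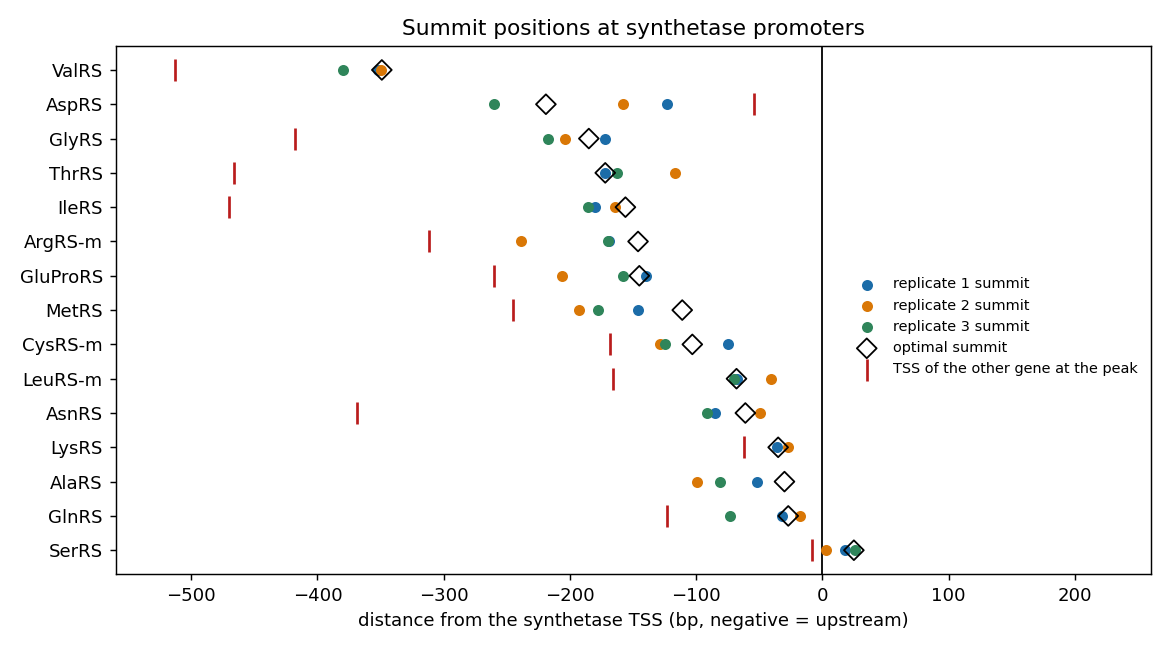
Distance in bp of optimal summits (open diamonds) and replicate summits (dots) from the nearest TSS of each of the 15 called synthetase genes, with red bars for the TSS of the other gene nearest to the summit. All diamonds but that of SerRS lie left of the TSS, and at 14 genes a partner TSS lies upstream, up to 513 bp away at ValRS.

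Divergent neighbours and TSS number differed between the kinds of gene, and both move with peak calls genome-wide. A TSS of another gene on the other strand lay within 1000 bp at 23 of the 33 genes, namely 16 of 18 without -m and 7 of 15 with it. Over all protein-coding genes, 5141 of 13945 had such a neighbour. Among the 23, 14 had an optimal peak (60.9%), against 45.4% of all genes with such a neighbour. Among the other 10, 1 had a peak (10%), against 17.5% of all genes without one. Within the genes that had a neighbour, 11 of 16 without -m and 3 of 7 with -m had a peak. Without a neighbour, 1 of 2 and 0 of 8 had one.

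Genes with several TSSs offer more positions where a peak counts. The genes without -m had 1.44 annotated TSSs on average and those with -m 1.13, beside 19607 TSSs at all 13945 protein-coding genes. All 7 genes without -m that have several TSSs had an optimal peak, and neither of the 2 with -m did, against 46.7% of all genes with several TSSs. With 1 TSS, 5 of 11 genes without -m and 3 of 13 with -m had a peak, against 21.0% of all genes with 1 TSS. The part of neighbours and TSS number in the difference between the 2 kinds was not tested.

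**Figure D4:**
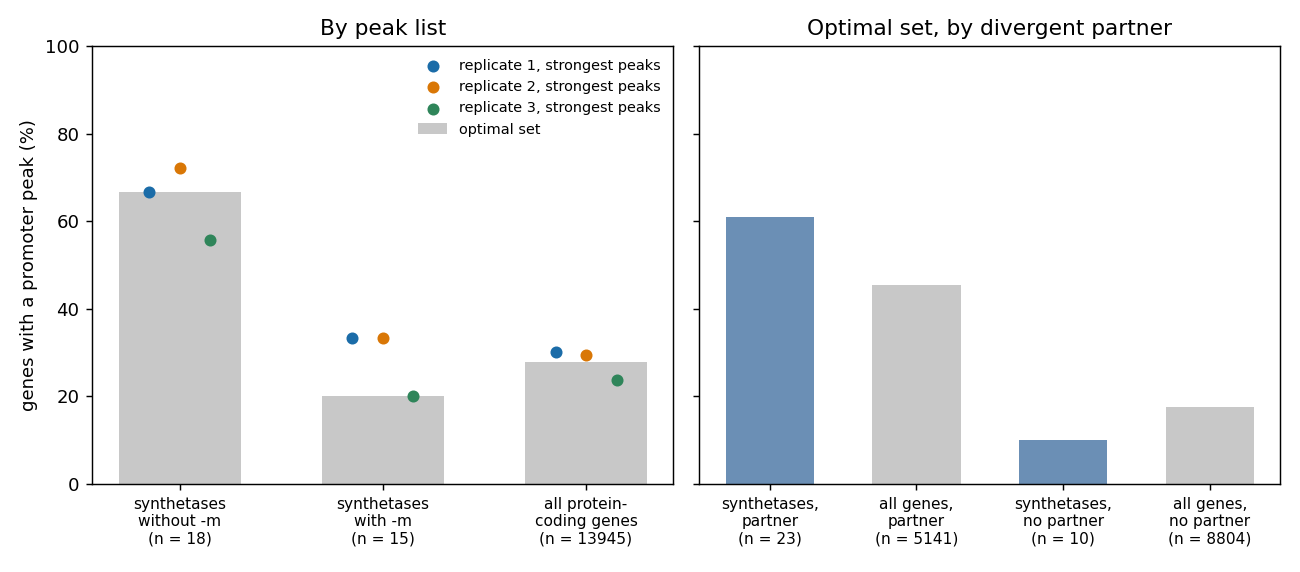
Left, share of genes (%) with a promoter peak in the optimal set (bars) and among the 8001 strongest peaks of each replicate (dots), for synthetase genes without and with -m and for all protein-coding genes. Right, the optimal-set share by whether another gene's TSS on the other strand lies within 1000 bp, where synthetases stand at 60.9% and 10% and all genes at 45.4% and 17.5%.

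By catalytic class, the counts were set beside the 27.8% of all genes with an optimal peak. Without -m, 7 of 8 class II genes (87.5%), all but HisRS, and 4 of 9 class I genes (44.4%) had one. With -m, 0 of 6 class II genes and 3 of 9 class I genes (33.3%) had one. In the strongest peaks of replicates 1, 2 and 3, where all genes stood at 30.2%, 29.4% and 23.7%, class II genes without -m numbered 6, 7 and 6 of 8 and class I genes without -m 5, 5 and 3 of 9. With -m, class II genes numbered 2, 2 and 1 of 6 and class I genes 3, 3 and 2 of 9. As shares, the classes with -m lay close together there, at 27.8% ± 9.62 and 29.6% ± 6.42 (SD, n = 3), and near the share of all genes. GluProRS, which holds an enzyme of each class, is counted apart. Among the class II genes without -m, AlaRS, AspRS, LysRS, SerRS and ThrRS have several TSSs, and among those of class I only ValRS does. Over all genes, 46.7% of those with several TSSs and 21.0% of those with 1 TSS had an optimal peak. The part of TSS number in the difference between the classes was not tested.

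The multi-synthetase complex was represented by 8 genes, namely GluProRS, IleRS, LeuRS, MetRS, GlnRS, LysRS, ArgRS and AspRS. Of these, 6 had an optimal peak (75%), and of the other 10 genes without -m, 6 did (60%), against 27.8% of all genes. In the strongest peaks of replicates 1, 2 and 3, the complex genes numbered 6, 7 and 4 and the other 10 numbered 6 in each, against the same 30.2%, 29.4% and 23.7% of all genes. The difference between these groups was not tested.

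Optimal summits beyond the highest were found at AsnRS and AspRS. AsnRS had a second one 263 bp upstream of its TSS with a pooled signal of 325. The TSS of DCTN6-p27, 369 bp upstream of that of AsnRS, was nearer to this second summit. AspRS, which has 3 annotated TSSs, had a second one 13 bp upstream of the TSS inside the gene with a signal of 385. It was also the sole member with an optimal summit in its body farther than 500 bp from a TSS of its own, with a signal of 394. Nmda1 starts on the opposite strand within the AspRS gene, so which gene this summit serves cannot be told from its position.

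Genes that work with the synthetases were called in part. Of 9 partner genes, 4 had an optimal promoter peak, against 27.8% of all genes. Next to GatA, whose product belongs to the amidotransferase that makes glutaminyl-tRNA in mitochondria, the pooled signal was 459, with 159.5, 146 and 152 in the replicates. GatC, of the same enzyme, had 228 and Slimp, a relative of seryl-tRNA synthetase, had 246. The phenylalanyl subunit gene alpha-PheRS had 385, with 184 and 152 in replicates 1 and 2 and no peak in replicate 3, while beta-PheRS had none in any list. GatB and the complex scaffold gene AIMP1 had no promoter peak either, AIMP2 had none in the pooled list, and AIMP3 had a pooled peak of 110.4. Of the 4 called partner genes, Slimp alone had its peak to itself. The summit at GatA was nearer to the TSS of P5cr, and that at alpha-PheRS nearer to the TSS of CG2129. GatC shares its TSS with PolG2, and Polr2C lies at the same peak. Which gene these shared peaks serve cannot be told from position.

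Genes of uncharged tRNA sensing or of the wider ATF4 arm were also examined. The kinase Gcn2 senses uncharged tRNA, and the factor encoded by crc, the fly ATF4, induces synthetase genes. Of 7 such genes, 5 had an optimal peak, against 27.8% of all genes. PEK, crc, Thor and Xrp1 have several TSSs, a kind of gene of which 46.7% had one. The signals of crc were 172, 188 and 238 in replicates 1, 2 and 3, with a pooled signal of 601. The crc peak lies at a TSS shared with CG46314 on the same strand. Xrp1, a stress transcription factor gene, had 616, PPP1R15, a phosphatase regulator, 389, Thor, the 4E-BP gene, 314, and the kinase gene PEK 235. For PEK the summit was matched in replicate 2 alone, and for PPP1R15 in replicates 1 and 2. Gcn2 had no promoter peak in any list, and eIF2alpha had a pooled peak of 107, below the threshold.

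Ribosomal protein genes gave a measure of other translation genes in the same lists. Of 92 genes with a cytoplasmic ribosomal protein symbol, 82.6% had an optimal promoter peak, and of 73 mitochondrial ones 46.6% did. The share was 27.8% over all genes, 66.7% at synthetase genes without -m and 20% at those with -m. Median pooled signals of the called ribosomal protein genes were 974 and 498, beside 471 at the called synthetases. The difference between these lists was not tested.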

How the data were processed

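The sources were the peak lists of 3 replicates, of their pool, and of the authors' optimal set. According to the texts deposited with them, every replicate list rests on that replicate's alignment and a shared control, while the pooled list rests on the 3 alignments with that control, and irreproducible discovery rate yielded the optimal set. The assembly is dm6, per the labels. For aligner and peak caller, the name is not given in the sources used here. Heights are the signal column as deposited by the authors, and positions are the deposited summit offsets.

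Genes came from Ensembl release 115 (BDGP6.54), with 13945 protein-coding genes and 19607 TSSs, and sequence from RefSeq Release 6, whose coordinates are those of dm6. All peaks lay within its arms. A replicate's signal at an optimal summit was its highest peak within 100 bp. Counts were set beside those of all genes, with no test, since there is 1 group. The members, gene lists, classes and words were chosen with earlier results of these data known. All 33 members are named, with signals, ranks and summit positions for those with an optimal peak, and related genes are counted, with values for those with one. Python 3.11.15 with numpy 2.4.6, pandas 2.3.3 and matplotlib 3.10.9 was used, and assignment of peaks to genes was tested on simulated data. Of the alternatives, 12 changed distance, overlap, threshold, list, shared promoters or replicates.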

Additional observations from a re-analysis of the deposited data

How the results depend on the processing

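The count of 15 synthetase genes moved by over 1.5 times in 1 of 12 alternatives: the strongest 4001 peaks of the optimal set marked 9 of 33, with 0 of the genes with -m and 16.4% of all genes. The pooled list marked 6 genes with -m and 42.6% of all genes, and replicates 1 and 2 alone marked 5 genes with -m each. Without each replicate in turn, sites shared by the other 2 marked 12 to 16 synthetase genes, 10 to 12 without -m and 2 to 4 with it, and 16.8% to 23.1% of all genes. In these and the other settings the share of genes without -m exceeded that of genes with -m and that of all genes. Counting a peak for its nearest gene alone gave 9 genes without -m and 2 with it, against 21.6% of all genes. AlaRS, AsnRS, AspRS, IleRS, MetRS, SerRS and ThrRS were marked in all 12. GlnRS and LeuRS-m were lost without replicate 1 and without replicate 2, and LysRS without any of the 3. Replicate summits within 50 bp changed none of the 15 mean signals by over 1 SD. Word counts moved by over 1.5 times in 8 of 14 recounts with windows of 50 or 250 bp, with the CACCC box going from 1 to 6 of 15 and the DRE from 1 to 4 at 250 bp. No paired analysis was possible because there is 1 group. Without read counts, the depth of each library and any limit on weak binding are unknown.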
